A study of Mus musculus with 21 samples.

Results

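Mouse lung fibroblasts that had received transforming growth factor beta 1 (TGFb1) were compared with and without the solvent dimethyl sulfoxide (DMSO). All 6 libraries of these groups in the deposited gene count table were used, out of 21 libraries in 7 groups: 3 labelled TGFb1 + DMSO and 3 labelled TGFb1. Every library of the series came from fibroblasts labelled Ly6C+/Sca-1+, the products of Ly6c genes and of Ly6a, and was prepared from total RNA by a protocol that keeps strand. The other 15 libraries held DMSO alone, the compound CHIR alone, and TGFb1 together with CHIR, with IL1b or with TNF, with 3 libraries in each group. The doses, the length of treatment, the volume of solvent and what the TGFb1 libraries received in its place were not stated in the labels used here. Nor do the labels say whether the 3 libraries of a group came from separate animals or cultures. The p-values measure the spread between libraries within groups, estimated over all 7 groups, and this spread may be technical.

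TGFb1 binds a pair of receptor kinases that phosphorylate SMAD proteins, and in fibroblasts it is known for driving the change to a myofibroblast, a cell with contractile actin bundles that secretes collagen-rich matrix. The contractile genes of that state are also controlled by serum response factor, which binds the CArG box. DMSO is the usual carrier for small compounds in culture, and a group that carries it is the reference against which a dissolved compound is read.

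The 3 TGFb1 libraries held 19796379 to 28445604 counts and the 3 TGFb1 + DMSO libraries 25767384 to 29276382. On the first principal component of the 6 libraries, which held 24.5% of the variance, the TGFb1 libraries lay at 5.67 to 40.4 and the TGFb1 + DMSO libraries at -21.1 to -16. Library 1 of TGFb1 stood apart on that axis, and library 3 of TGFb1 stood apart on the second axis at -44.3. Fibroblast markers summed to 61991 to 64273 normalised counts (CPM, scaled to a fixed library size) with TGFb1 alone and to 58131 to 60953 CPM with DMSO added, and Ly6a and Ly6c1, the genes of the sorted markers, were detected in all 6 libraries. Markers of other lung cells were low: 9 immune markers summed to 4.17 to 4.42 CPM and 3.27 to 4.53 CPM, with Ptprc, Lyz2, Cd3e, Adgre1 and Tyrobp at 0 in all 6 libraries. The 7 epithelial markers summed to at most 0.538 CPM, the 6 endothelial markers to at most 7.06 CPM and the 5 mesothelial markers to at most 32.3 CPM, most of it Wt1. CPM were computed on TMM-scaled library sizes, and a fold change is given as log2 of TGFb1 + DMSO over TGFb1.

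Adding the solvent to TGFb1 went with many small differences and few large ones. Of 16197 genes tested, 993 differed (6.13%) by edgeR's quasi-likelihood test at an adjusted p under 0.05, 378 higher in TGFb1 + DMSO (2.33%) and 615 lower (3.8%). The median size of a called difference was 1.21-fold, and 476 of the 993 were under 1.2-fold. A size of 1.2-fold or more was reached by 185 of the higher genes (1.14% of all tested) and 332 of the lower genes (2.05%). At least 1.5-fold were 48 higher genes (0.296%) and 97 lower genes (0.599%), and at least 2-fold 18 (0.111%) and 35 (0.216%). The direction of the balance depended on scaling: with library totals alone the calls were 668 higher and 463 lower, so 59.1% of calls were higher against 38.1%, while the median of all genes moved from 0.00 to 0.03 on the log2 scale. Without library 1 of TGFb1 the calls were 225 higher and 421 lower, and without library 2 of TGFb1 + DMSO 238 higher and 440 lower.

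Among genes whose mean CPM was at least 2 on the log2 scale, the 12 largest increases were led by Mmp13, Lgr5 and Lbp. Mmp13 is a collagenase, Lgr5 a receptor, and Lbp binds lipopolysaccharide. Meox1, a homeobox transcription factor (ENSMUSG00000001493, GRCm38 chr11:101877510-101894374), stood at 5.76, 6.75 and 7.37 CPM in the TGFb1 libraries. With DMSO added it stood at 2.44, 2.52 and 2.38 CPM. The groups did not overlap, and the log2 fold change was -1.43 ± 0.15 (SE, n = 3 per group, adjusted p = 1.83e-09). Tnnt2, the cardiac form of troponin T, fell from 10.8 ± 0.883 to 5.18 ± 0.667 CPM (SD, n = 3) with a log2 change of -1.06, and Gjb5, a connexin of gap junctions, fell by 1.09 on the log2 scale. Il1rl1, the receptor of interleukin 33, had a log2 change of -1.01, and the call was lost without library 2 or 3 of TGFb1 + DMSO or library 1 or 2 of TGFb1 (adjusted p of 0.0739 to 0.103). Cilp, a secreted matrix protein, had -0.97 and lost its call without library 1 of TGFb1 (adjusted p = 0.134) and without library 2 or 3 of TGFb1 + DMSO (0.0763 and 0.0567).

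The sphingosine 1-phosphate receptor S1pr3 (ENSMUSG00000067586, GRCm38 chr13:51408639-51422797) was lower with little spread between libraries. Its TGFb1 libraries held 95.3, 85.8 and 92.7 CPM and its TGFb1 + DMSO libraries 51.5, 50.6 and 52.2 CPM. The log2 change was -0.83 ± 0.055 (SE, adjusted p = 1.1e-15), and the groups did not overlap. Cav1, which forms the membrane pits called caveolae, stood at 93.5 ± 4.98 CPM with TGFb1 and 52.1 ± 3.22 CPM with DMSO added (log2 change -0.84). Lrrc15, a surface protein known from TGFb1-driven fibroblasts, fell from 52.4 ± 6.48 to 30.0 ± 3.6 CPM, against 0.318 ± 0.137 CPM in the libraries with DMSO alone. Asb2, a substrate adaptor of a ubiquitin ligase, Lpin3, a phosphatidate phosphatase, Cdsn, an adhesive protein of cornified epithelia, and Pla2g2e, a secreted phospholipase, fell by 0.88, 0.87, 0.81 and 0.79 on the log2 scale.

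**Figure D1:**
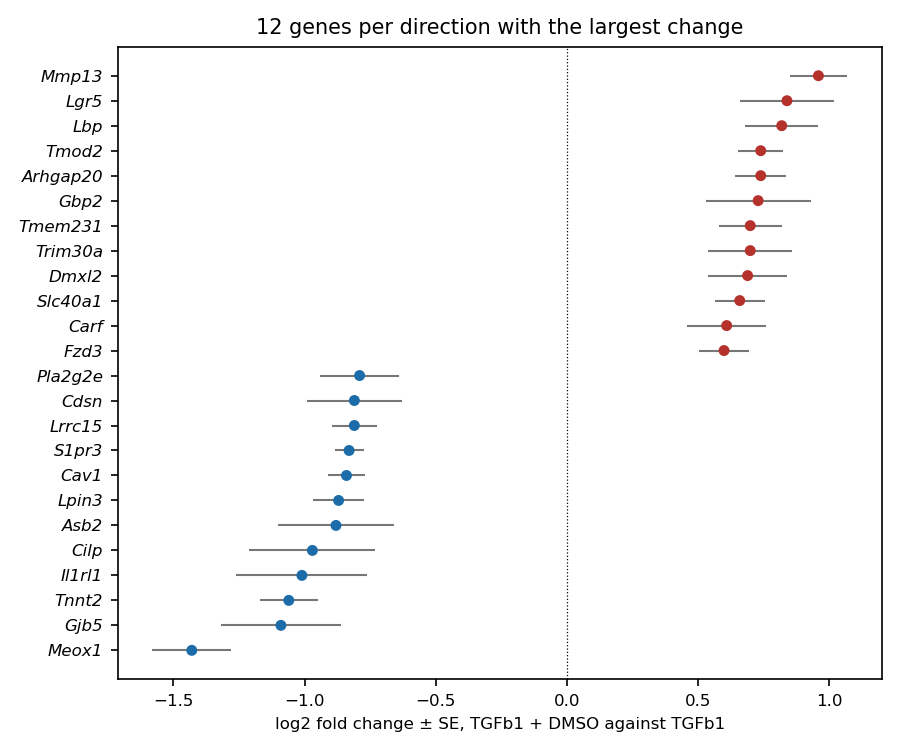
Log2 fold change with its standard error (horizontal axis) of TGFb1 + DMSO against TGFb1 for the 12 genes per direction with the largest change. They were taken from genes past the test, with a mean CPM of at least 2 on the log2 scale, whose groups did not overlap. Red points were higher and blue points lower with DMSO. The decreases reach -1.43 (Meox1) and the increases 0.96 (Mmp13).

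Contractile and cytoskeletal genes were lower as a group when the solvent was present. Of 22 genes tested, 17 fell and 0 rose (0 also at an unadjusted p under 0.05, and 0 with DESeq2 and with limma voom), against 3.8% of all genes lower. All 22 log2 changes were below 0 with a median of -0.32, against 0.00 over all genes tested. The groups did not overlap for 20 of the 22, a pattern seen in the same direction for 11.2% of all genes. Myh11, Synpo2, Des, Cald1 and Itga5 did not pass the test, with log2 changes of -0.50, -0.44, -0.36, -0.10 and -0.07. Leaving out any single library left 16 or 17 genes lower, and with library totals alone 16 were lower.

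Cnn1, or calponin, an actin-binding protein of smooth muscle (ENSMUSG00000001349, GRCm38 chr9:22099216-22109630), held 211, 212 and 205 CPM in the TGFb1 libraries. With DMSO added it held 132, 141 and 153 CPM. The 3 libraries with solvent were all below the 3 without, at a log2 change of -0.56 ± 0.063 (SE, adjusted p = 2e-07), and both groups were above the 46.6 ± 4.33 CPM of cells with DMSO alone. Acta2, the smooth muscle actin that defines a myofibroblast (ENSMUSG00000035783, GRCm38 chr19:34241090-34255590), held 2384, 2355 and 2438 CPM without the solvent and 1705, 1870 and 1883 CPM with it. Its log2 change was -0.39 ± 0.049 (SE, adjusted p = 1.07e-06), and against DMSO alone at 1114 ± 37.0 CPM the log2 fold changes were 1.1 for TGFb1 and 0.71 for TGFb1 + DMSO. Those comparisons share the DMSO libraries and are set side by side only.

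Actg2, the enteric smooth muscle actin, stood at 512, 522 and 520 CPM with TGFb1 and at 379, 386 and 407 CPM with TGFb1 + DMSO. The gap between the groups was many times the spread within either, with a log2 change of -0.41 (adjusted p = 1.83e-09). Myl9, the regulatory light chain of myosin (ENSMUSG00000067818, GRCm38 chr2:156775420-156781658), held 311, 326 and 321 CPM and, with solvent, 211, 237 and 254 CPM. In cells with DMSO alone it stood at 317 ± 17.8 CPM, so its level with TGFb1 alone lay within the spread of that group and its level with both agents lay below. Lmod1, leiomodin, which nucleates actin filaments, was lower in TGFb1 (45.8 ± 3.79 CPM) than in DMSO alone (75.2 ± 1.97 CPM) and lowest in TGFb1 + DMSO (28.8 ± 0.661 CPM), a log2 change of -0.67 between the groups with TGFb1. Actb, the cytoplasmic actin often used as a loading control, fell from 2879 ± 169 to 2381 ± 138 CPM, and Tmod2, which caps the slow-growing end of actin filaments, rose from 16 ± 1.11 to 26.7 ± 2.31 CPM. In bulk RNA, fewer cells of a kind and less RNA per cell cannot be told apart. The 6 markers of mural and smooth muscle cells, most of whose level was Pdgfrb, summed to 1104 to 1153 CPM with TGFb1 and 1086 to 1193 CPM with DMSO added. None of the 6 passed (1 lower at an unadjusted p under 0.05, and 0 with DESeq2 and with limma voom), while 5 had a log2 change below 0, the lowest -0.74, and their median was -0.27, against -0.32 for the contractile list. Their part in the result was not tested.

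**Figure D2:**
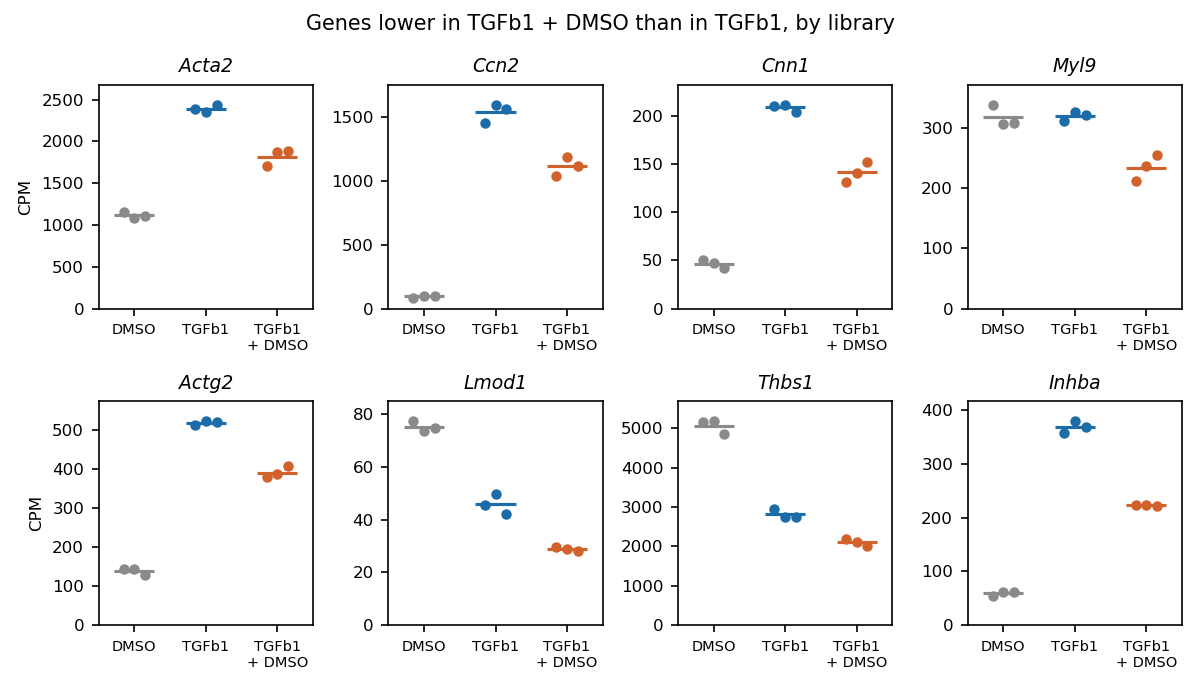
CPM (vertical axes, each from 0) of 8 genes in the 3 libraries of DMSO alone, TGFb1 and TGFb1 + DMSO. Points are libraries and bars group means. In each panel the 3 TGFb1 + DMSO libraries lie below the 3 TGFb1 libraries, while their place against DMSO alone differs between genes.

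The CArG box was looked for on both strands in the RefSeq promoters of these genes (GRCm38.p6, 250 bases before to 50 after the start), since it is the site named above. The search was planned for immediate early genes, where 3 of the 16 with a promoter had a match. The contractile list was added to the motif search after its values were seen. A match lay in the promoters of 5 of the 19 contractile genes with a promoter in the table, against 1.81% of 27025 genes in the table. The 5 were Cnn2, Myl9, Fhl2, Fhl1 and Vcl, all lower with DMSO, as were 15 of the 19 with or without a match. A match describes letters only and shows no binding. Contractile genes are known targets of serum response factor, as given above, so the excess over all genes says nothing of the solvent. The promoters of Myl9 (chr2:156775214-156775513, plus strand), of Cnn2, a calponin of non-muscle cells (chr10:79988350-79988649, plus strand), and of Vcl, vinculin, which ties actin to adhesions (chr14:20929148-20929447, plus strand), show the box in capitals. Cnn2 had a log2 change of -0.31 and Vcl of -0.22.
Myl9: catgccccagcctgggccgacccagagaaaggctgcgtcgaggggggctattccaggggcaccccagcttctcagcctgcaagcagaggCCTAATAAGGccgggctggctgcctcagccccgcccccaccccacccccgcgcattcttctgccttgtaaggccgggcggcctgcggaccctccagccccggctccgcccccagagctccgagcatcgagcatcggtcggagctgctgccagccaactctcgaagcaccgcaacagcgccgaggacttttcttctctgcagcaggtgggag
Cnn2: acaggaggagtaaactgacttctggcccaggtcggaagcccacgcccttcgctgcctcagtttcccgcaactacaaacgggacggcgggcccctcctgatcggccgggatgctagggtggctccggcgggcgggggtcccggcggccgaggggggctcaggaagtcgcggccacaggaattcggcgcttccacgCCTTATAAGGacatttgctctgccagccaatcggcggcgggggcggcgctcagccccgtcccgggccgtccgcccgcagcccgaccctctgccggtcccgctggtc
Vcl: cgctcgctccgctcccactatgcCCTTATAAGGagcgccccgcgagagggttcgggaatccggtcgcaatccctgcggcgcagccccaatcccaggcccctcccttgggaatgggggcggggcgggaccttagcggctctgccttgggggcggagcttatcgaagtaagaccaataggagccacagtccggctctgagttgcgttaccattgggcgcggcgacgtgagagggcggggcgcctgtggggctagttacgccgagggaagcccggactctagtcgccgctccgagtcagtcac

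Direct TGFb1 targets did not move as one. Of 20 TGFb and SMAD target genes, 5 fell and 1 rose (25% and 5%, against 3.8% and 2.33% of all genes) with a median log2 change of 0.00, and 3 were lower without library 3 of TGFb1. Ccn2, connective tissue growth factor (ENSMUSG00000019997, GRCm38 chr10:24595442-24598683), stood at 1451, 1595 and 1566 CPM with TGFb1 and at 1038, 1183 and 1117 CPM with DMSO added. The groups did not overlap, the log2 change was -0.47 (adjusted p = 1.88e-05), and both groups were far above DMSO alone at 94.2 ± 8.69 CPM. Snai1, a repressor of epithelial genes, had a log2 change of -0.25 and lost its call without library 1 of TGFb1 (adjusted p = 0.163). Ltbp2, a latent TGFb binding protein, was also among the lower genes. So was Smad7, a feedback inhibitor, which lost its call with library totals alone (adjusted p = 0.0686), without library 1 or 2 of TGFb1 + DMSO (0.0857 and 0.183) and without library 2 or 3 of TGFb1 (0.23 and 0.077). Pmepa1, a feedback inhibitor of SMAD signalling, was 1202 ± 43.2 CPM and 1309 ± 34.0 CPM, a log2 change of 0.12 whose call was lost without library 1, 2 or 3 of TGFb1 + DMSO or library 2 or 3 of TGFb1 (adjusted p of 0.0511 to 0.164). That call was also lost with RLE scaling factors (adjusted p = 0.0642) and with mitochondrial and rRNA genes left out (0.0544). The transcript of Tgfb1 itself had a log2 change of -0.11 (adjusted p = 0.166), and Skil, Tgfbr1 and Nox4 had 0.05, 0.13 and 0.13 without passing.

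Of 24 cytokines and growth factors 7 fell (29.2%, against 3.8% of all genes), 1 rose (4.17%, against 2.33%) and 16 did not pass, with a median log2 change of -0.18. Inhba, the activin A subunit, a ligand of the TGFb family (ENSMUSG00000041324, GRCm38 chr13:16011851-16031621), held 357, 379 and 369 CPM with TGFb1 and 224, 223 and 221 CPM with TGFb1 + DMSO. The libraries within each group were nearly alike, and the log2 change was -0.72 ± 0.051 (SE, adjusted p = 1.75e-12). Hgf, hepatocyte growth factor, fell from 31.0 ± 2.6 to 22.3 ± 1.07 CPM, and the epidermal growth factor receptor ligands Ereg and Hbegf fell by 0.49 and 0.33 on the log2 scale. Fgf7, Lif and Tgfb2 made up the rest of the 7. Gas6, the ligand of the TAM receptor kinases, was the 1 gene that rose, from 12.9 ± 1.2 to 18.9 ± 2.23 CPM, far below the 418 ± 15.6 CPM of DMSO alone.

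Among Wnt and beta-catenin target genes, 5 of 20 were lower and 1 higher (25% and 5%, against 3.8% and 2.33% of all genes). Ccnd1, cyclin D1, held 76.3, 84.1 and 83.3 CPM with TGFb1 and 47.5, 53.5 and 54.4 CPM with DMSO added (log2 change -0.65, adjusted p = 1.75e-07). The R-spondin receptors went opposite ways: Lgr6 fell from 37.0 ± 3.42 to 25.4 ± 0.209 CPM and Lgr5 (ENSMUSG00000020140, GRCm38 chr10:115450311-115587780) rose from 5.86 ± 0.726 to 10.4 ± 1.08 CPM. Both were near 0 in DMSO alone, at 0.576 ± 0.258 and 0.123 ± 0.213 CPM. Lef1 and Axin2, the usual read-outs of the pathway, had log2 changes of -0.22 and -0.21 and did not pass. The count of lower genes was 2 without library 1 of TGFb1 + DMSO, library 1 of TGFb1 or library 3 of TGFb1, and 2 with library totals alone. It was 3 without library 2 or 3 of TGFb1 + DMSO. Fzd3, a Wnt receptor outside this list, rose by 0.60 on the log2 scale.

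Genes of the fibrous matrix were lower by small amounts. Of 28 collagen and matrix genes, 12 fell (42.9%, against 3.8% of all genes) and 0 rose (2 higher at an unadjusted p under 0.05, 0 with DESeq2 and with limma voom), and the median log2 change was -0.13. Summed over the 28 genes the level was 135897 ± 1516 CPM with TGFb1 and 127771 ± 1228 CPM with DMSO added, against 79259 ± 329 CPM in DMSO alone. Thbs1, thrombospondin 1, which activates latent TGFb, held 2947, 2739 and 2759 CPM against 2194, 2123 and 2008 CPM, and both groups were below DMSO alone at 5066 ± 182 CPM. Its log2 change was -0.42 ± 0.04 (SE, adjusted p = 1.66e-10). Postn, periostin, held 6178, 5758 and 5543 CPM and, with solvent, 5154, 5093 and 5054 CPM, a log2 change of -0.19 (adjusted p = 0.00015).

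Minor collagens were among the genes that fell. Col8a1 and Col11a1, short-chain and minor fibrillar collagens, fell by 0.40 and 0.33 on the log2 scale, and the collagen VI chains Col6a1, Col6a2 and Col6a3 by 0.21 to 0.23. Col1a1, the main chain of type I collagen (ENSMUSG00000001506, GRCm38 chr11:94936224-94953042), held 27124, 27280 and 28760 CPM with TGFb1 and 25771, 25121 and 25088 CPM with TGFb1 + DMSO. Its log2 change of -0.13 ± 0.037 (SE, adjusted p = 0.0233) lost its call without library 3 of TGFb1 (0.148), without library 2 or 3 of TGFb1 + DMSO (0.0868 and 0.0864), with library totals alone (0.0865), with a correction for GC and length (0.0772) and with limma voom (0.0924). Col1a2 and Col3a1 had log2 changes of -0.03 and -0.04 and did not pass. Fn1, fibronectin, had -0.14 and lost its call without library 1 of TGFb1 + DMSO (adjusted p = 0.0549) and with limma voom (0.063). Cthrc1, a marker of matrix-producing lung fibroblasts, had -0.35 and lost its call without library 2 of TGFb1 + DMSO (adjusted p = 0.0675).

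Enzymes that modify and crosslink collagen also fell: 10 of 22 were lower (45.5%, against 3.8% of all genes) and 0 higher (1 higher at an unadjusted p under 0.05, 0 with DESeq2, 1 with limma voom), 21 of 22 log2 changes were below 0, and the median was -0.14. Without library 3 of TGFb1 + DMSO or library 1 of TGFb1, 6 were lower. With library totals alone 6 were lower and 1 higher. Loxl3, a lysyl oxidase that crosslinks collagen, held 162, 153 and 153 CPM against 128, 120 and 117 CPM (log2 change -0.36, adjusted p = 4.64e-06). P4ha2, a proline hydroxylase subunit, fell from 395 ± 10.2 to 339 ± 13.2 CPM. Lox, the founding member of the crosslinking family, had -0.17 and Plod2, a lysine hydroxylase, 0.11, and neither passed.

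Matrix-degrading enzymes went both ways. Of 25 proteases and inhibitors 6 rose, Mmp11, Mmp12, Mmp13, Mmp14, Adamts9 and Adamts15, and 4 fell, Plau, Plaur, Adamts1 and Adamts12. The shares were 24% higher and 16% lower, against 2.33% and 3.8% of all genes. Mmp13, an interstitial collagenase (ENSMUSG00000050578, GRCm38 chr9:7272514-7283331), held 51.1, 45.6 and 40.4 CPM with TGFb1 and 96.1, 87.0 and 84.1 CPM with TGFb1 + DMSO. The 3 libraries with solvent were all well above the others at a log2 change of 0.96 ± 0.11 (SE, adjusted p = 8.16e-05), and DMSO alone stood at 6.24 ± 0.34 CPM. Mmp11, stromelysin 3, rose from 112 ± 7.98 to 156 ± 11.0 CPM, towards the 185 ± 6.22 CPM of DMSO alone. Adamts15, which cuts versican and aggrecan, stood at 3.92, 1.61 and 2.32 CPM and at 5.47, 4.74 and 4.46 CPM with DMSO added.

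Mmp14, the membrane-bound activator of other metalloproteinases, held 902, 904 and 925 CPM against 1020, 971 and 1029 CPM. Its log2 change of 0.14 (adjusted p = 0.00891) was lost without library 3 of TGFb1 + DMSO (0.0541). Mmp12, macrophage elastase, was near 1 CPM (0.922, 0.999 and 1.08) with TGFb1 and at 2.95, 1.43 and 2.6 CPM with solvent. The log2 change of 1.21 lost its call without library 1 or 3 of TGFb1 + DMSO or library 1 of TGFb1 (adjusted p of 0.0611 to 0.111). Plau, urokinase, and its receptor Plaur fell by 0.40 and 0.38 on the log2 scale. The inhibitors Timp1, Timp2 and Timp3 had log2 changes of -0.08, 0.09 and -0.12 and did not pass.

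**Figure D3:**
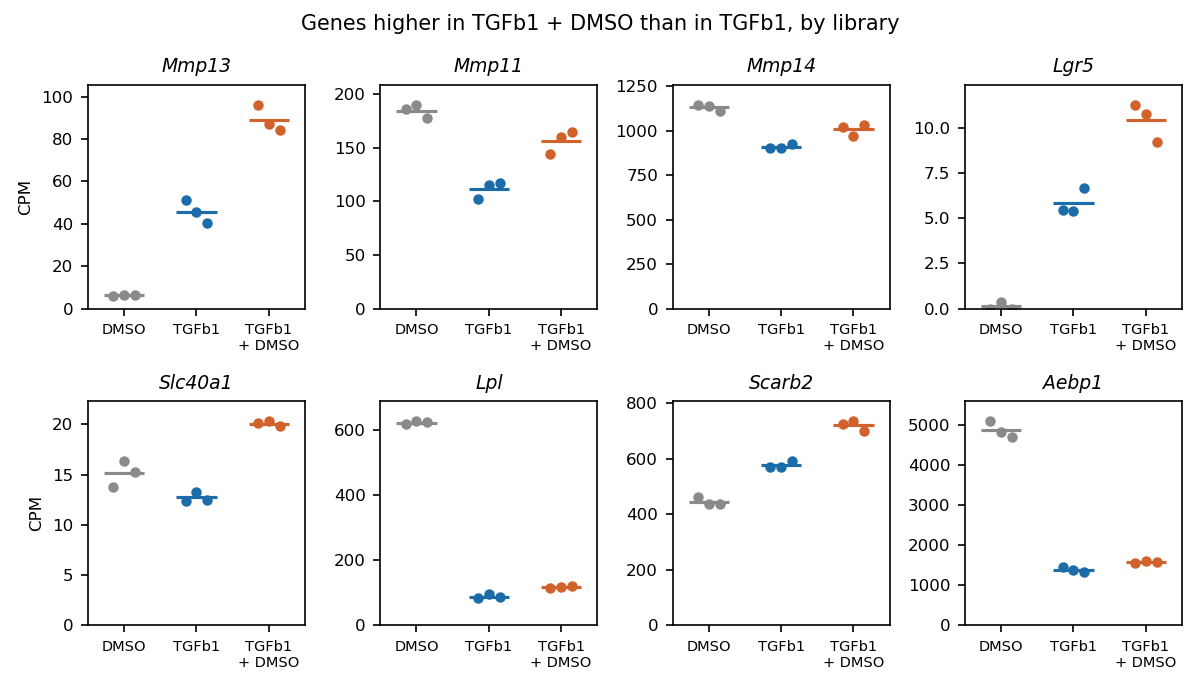
CPM (vertical axes, each from 0) of 8 genes in the 3 libraries of DMSO alone, TGFb1 and TGFb1 + DMSO. Points are libraries and bars group means. In each panel the 3 TGFb1 + DMSO libraries lie above the 3 TGFb1 libraries, by up to 0.96 on the log2 scale for Mmp13.

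The genes of the sorted surface markers were lower with the solvent. Ly6a, which encodes Sca-1, held 97.5, 83.1 and 79.3 CPM with TGFb1 and 67.6, 70.5 and 61.6 CPM with DMSO added, a log2 change of -0.38 (adjusted p = 0.000313). Ly6c1 stood at 27.7, 23.3 and 21 CPM against 16.5, 14.7 and 17.6 CPM (log2 change -0.57, adjusted p = 6.84e-05), and its reads can be split with its near copy Ly6c2. In DMSO alone the levels were 142 ± 5.52 and 49.8 ± 1.77 CPM, so both groups with TGFb1 were lower than that. Of 15 adventitial fibroblast markers 6 fell (40%, against 3.8% of all genes) and 0 rose (also 0 higher at an unadjusted p under 0.05, with DESeq2 and with limma voom). Among the 6 were Htra3, a serine protease (log2 change -0.34), and Gsn, the actin-severing protein gelsolin (-0.33). Cd34 and Pi16, further markers of these cells, had -0.33 and -0.15 and did not pass. Thy1, a general fibroblast surface marker, stood at 84.8, 77.7 and 78.1 CPM and at 54.4, 55.2 and 52.8 CPM with DMSO added (log2 change -0.57). Pdgfra, another, had a log2 change of 0.07 and did not pass.

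Lists of metabolism and protein folding leaned lower by small amounts. Of 21 glycolysis and hypoxia genes 7 fell (33.3%, against 3.8% of all genes) and 0 rose (0 higher at an unadjusted p under 0.05, with DESeq2 and with limma voom), and 20 of 21 log2 changes were below 0 with a median of -0.20. Vegfa, the angiogenic growth factor, held 985, 1008 and 980 CPM against 790, 856 and 842 CPM (log2 change -0.26, adjusted p = 5.12e-06). Slc16a3, a lactate exporter, held 123, 135 and 125 CPM against 103, 108 and 104 CPM, and DMSO alone 3.94 ± 0.481 CPM. Egln3, an oxygen-sensing proline hydroxylase, fell by 0.37 on the log2 scale. Without library 1 of TGFb1 + DMSO or library 2 of TGFb1, 4 of the list were lower.

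The hypoxia element ACGTG was searched on both strands in the same promoters and lay in 14 of the 20 genes with a promoter, against 21.8% of 27025 genes in the table. Among the 7 that fell, 6 had it. The list was in part chosen as genes that respond to hypoxia, so the excess over all genes says nothing of the solvent. The element TGATGNAA bound by ATF4 lay in 6 of 17 genes on the list of known ATF4 targets and of serine and proline synthesis, Pycr1 among them, against 4.51% of genes, and the list was in part chosen as targets of that factor. Among the 6 of these 17 that fell, 2 had it. The sterol element TCACNCCAC lay in 1 of 14 sterol synthesis genes with a promoter, against 1.44% of genes, and in 1 of the 3 of them that fell. The promoters of Slc16a3 (chr11:120948817-120949116, plus strand), with 2 hypoxia elements in capitals, and of Pycr1, which makes proline for collagen (chr11:120643699-120643998, minus strand), with the ATF4 element in capitals, are shown as examples of genes that fell.
Slc16a3: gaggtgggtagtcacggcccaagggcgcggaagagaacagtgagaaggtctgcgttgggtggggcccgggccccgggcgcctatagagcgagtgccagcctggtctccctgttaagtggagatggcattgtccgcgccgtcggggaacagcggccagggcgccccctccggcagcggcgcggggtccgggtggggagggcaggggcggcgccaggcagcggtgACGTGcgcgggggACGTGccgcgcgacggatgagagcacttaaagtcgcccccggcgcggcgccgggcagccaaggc
Pycr1: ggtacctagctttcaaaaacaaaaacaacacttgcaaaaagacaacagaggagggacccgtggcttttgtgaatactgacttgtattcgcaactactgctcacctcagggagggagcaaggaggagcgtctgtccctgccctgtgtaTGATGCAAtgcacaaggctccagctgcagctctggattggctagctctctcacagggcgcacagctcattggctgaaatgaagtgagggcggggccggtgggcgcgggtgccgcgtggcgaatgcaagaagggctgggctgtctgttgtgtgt

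Of 20 genes regulated by ATF4 or serving serine and proline synthesis, 7 fell (35%, against 3.8% of all genes) and 0 rose (1 higher at an unadjusted p under 0.05, 0 with DESeq2 and with limma voom). Pycr1 stood at 111, 108 and 116 CPM with TGFb1 and at 87.1, 91.0 and 90.5 CPM with solvent, and 27.8 ± 2.2 CPM in DMSO alone. Atf4, the transcription factor itself, held 738, 725 and 734 CPM against 593, 641 and 662 CPM. The log2 changes were -0.32 and -0.21 (adjusted p of 6.38e-05 and 0.000459). The count of lower genes was 3 without library 1 of TGFb1 + DMSO and 4 without library 2 or 3 of TGFb1.

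Sterol synthesis, protein folding and mitosis held lower genes and no higher ones past the test, and their counts changed between fits. At an unadjusted p under 0.05, 2 secretory pathway genes were higher, with 0 in the sterol and cell cycle lists. With DESeq2 and with limma voom 0 were higher in each list. The secretory pathway list had 16 log2 changes below 0 and 6 above, with a median of -0.06. Of 22 sterol genes 6 fell (27.3%, against 3.8% of all genes) and 21 had a log2 change below 0. The count of lower sterol genes was 2 without library 1 of TGFb1, and 3 without library 2 or 3 of TGFb1 + DMSO. Of 22 secretory pathway genes 6 fell (27.3%), led by Manf, a folding-stress factor of the endoplasmic reticulum, at -0.24. That count was 1 without library 1 of either group and with library totals alone, 2 without library 3 of TGFb1 + DMSO and 3 without library 2 of TGFb1. Of 30 cell cycle genes 5 fell, or 16.7% (Plk1, Cdk1, Aurka, Aurkb and Cenpe, kinases and a motor of mitosis), and 28 log2 changes were below 0 with a median of -0.12. The count was 0 without library 2 of TGFb1 + DMSO or library 1 of TGFb1, 3 without library 1 or 3 of TGFb1 + DMSO, and 2 with library totals alone.

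Scarb2, a lysosomal membrane protein, held 570, 571 and 593 CPM with TGFb1 and 727, 735 and 699 CPM with TGFb1 + DMSO, a log2 change of 0.32 ± 0.039 (SE, adjusted p = 9.57e-08). Of 16 lysosome and autophagy genes 4 rose (25%, against 2.33% of all genes) and 0 fell (1 lower at an unadjusted p under 0.05, 0 with DESeq2 and with limma voom). Among the 4 were Map1lc3b, which coats autophagosomes, and Lamp2, a lysosomal membrane protein. Map1lc3b lost its call without library 3 of TGFb1 + DMSO (adjusted p = 0.0695). The count of higher genes was 1 without library 3 of TGFb1 + DMSO and 2 without library 2 of TGFb1 + DMSO, library 1 of TGFb1 or library 2 of TGFb1. Lamp2 had a log2 change of 0.21 whose call was lost when any of the 6 libraries was left out (adjusted p of 0.0586 to 0.166). It was also lost with RLE scaling factors (0.0503) and with limma voom (0.084).

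Slc40a1, ferroportin, the iron exporter, held 12.4, 13.3 and 12.5 CPM against 20.1, 20.3 and 19.8 CPM (log2 change 0.66, adjusted p = 4.07e-06), and 15.2 ± 1.26 CPM in DMSO alone. Lpl, lipoprotein lipase, held 82.2, 94.5 and 85.3 CPM against 114, 118 and 120 CPM (log2 change 0.43, adjusted p = 4.96e-08), and Cpt1a, which brings fatty acids into mitochondria, rose by 0.25 on the log2 scale. They were the 2 higher genes of the 20 tested for fatty acid synthesis and lipid droplets, where 1 fell, 15 log2 changes were below 0 and the median was -0.09. The shares were 10% higher and 5% lower, against 2.33% and 3.8% of all genes. At an unadjusted p under 0.05, 9 of that list were lower and 2 higher, and DESeq2 called 5 lower and 2 higher. Aebp1, a secreted collagen-binding protein, rose from 1375 ± 59.6 to 1583 ± 24.9 CPM, against 4870 ± 196 CPM in DMSO alone. Eif4g2, a translation factor, rose by 0.16. Among the largest increases were also Lbp, named above, Arhgap20, which switches off small GTPases, Tmem231 of the primary cilium and Dmxl2 of the proton pump's assembly, with log2 changes of 0.82, 0.74, 0.70 and 0.69. Carf, a transcription factor, had 0.61 and lost its call without library 2 of TGFb1 + DMSO (adjusted p = 0.0895) or library 3 of TGFb1 (0.0564).

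Interferon-stimulated genes leaned higher, but few passed the test. Of 54 listed, 53 were tested, 51 had a log2 change above 0 and the median was 0.42. Only Ifit2, Gbp2 and Trim30a passed (5.66%, against 2.33% of all genes higher), and 20 were higher at an unadjusted p under 0.05. Their summed level was 1201, 1126 and 950 CPM with TGFb1, 1574, 1274 and 1356 CPM with TGFb1 + DMSO and 968 ± 144 CPM in DMSO alone. The groups with TGFb1 did not overlap in that sum, and the lowest library with solvent lay just above the highest without it. For 29 of the 53 genes the groups did not overlap in that direction, against 10.1% of all genes.

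The number of interferon genes past the test differed between fits. A fit of the 6 libraries alone, which also changes the scaling, the genes tested and the libraries that give the spread, called 20 higher. The fit with no filter on low counts and DESeq2 called 8 each, limma voom 2, and leaving out library 1 of TGFb1 left 1. The number was 2 without library 1 of TGFb1 + DMSO or library 2 or 3 of TGFb1. Ifit2, which blocks translation of foreign RNA, held 49.2, 45.8 and 48.9 CPM against 65.6, 58.5 and 64.1 CPM (log2 change 0.39 ± 0.068, adjusted p = 9.21e-05). Gbp2, a guanylate-binding GTPase (ENSMUSG00000028270, GRCm38 chr3:142620602-142638008), held 11.5, 10.8 and 7.73 CPM against 21.4, 15.6 and 13.1 CPM. Its log2 change of 0.73 lost the call without library 1 or 2 of TGFb1 + DMSO and without any 1 library of TGFb1 (adjusted p of 0.0569 to 0.112). Gbp2 also did not pass with limma voom (adjusted p = 0.0519). Trim30a, an inhibitor of innate signalling, stood at 9.23 ± 1.32 and 15.1 ± 1.55 CPM, and lost its call without library 1 of TGFb1 (adjusted p = 0.0633). Reads of Gbp and Trim30 family members can be split between close copies.

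Genes of interferon signalling itself did not pass. Of 14 interferon ligands, receptors and JAK-STAT genes 0 were called (0 also at an unadjusted p under 0.05, with DESeq2 and with limma voom), and the median log2 change was -0.02. Over all genes 6.13% were called, so a count of 0 in this short list or in the sensors below lies near that share. Ifnb1, the gene of interferon beta, did not pass the filter on low counts. Of 15 sensors of nucleic acids 0 were called by edgeR, DESeq2 or limma voom, with 6 higher and 1 lower at an unadjusted p under 0.05. A fit of the 6 libraries alone called 2 higher, and 1 was higher with library totals alone, with no filter, with the GC and length correction, and without library 1 of TGFb1 + DMSO or library 2 of TGFb1. The interferon-stimulated response element, the site of interferon-activated factors, searched on both strands, was in the promoters of 22 of the 40 listed genes with a promoter, against 3.99% of genes. The list was chosen as genes that respond to interferon, so this excess says nothing of the solvent. Among the 3 that passed, 2 had a promoter with the element. The promoter of Gbp2 (chr3:142620413-142620712, plus strand) carries it on the other strand, in capitals.
Gbp2: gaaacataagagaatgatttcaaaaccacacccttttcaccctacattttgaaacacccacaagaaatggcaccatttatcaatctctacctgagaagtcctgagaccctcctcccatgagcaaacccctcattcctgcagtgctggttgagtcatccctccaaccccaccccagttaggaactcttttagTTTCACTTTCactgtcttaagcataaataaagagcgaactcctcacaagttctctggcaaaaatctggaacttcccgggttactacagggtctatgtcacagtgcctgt

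**Figure D4:**
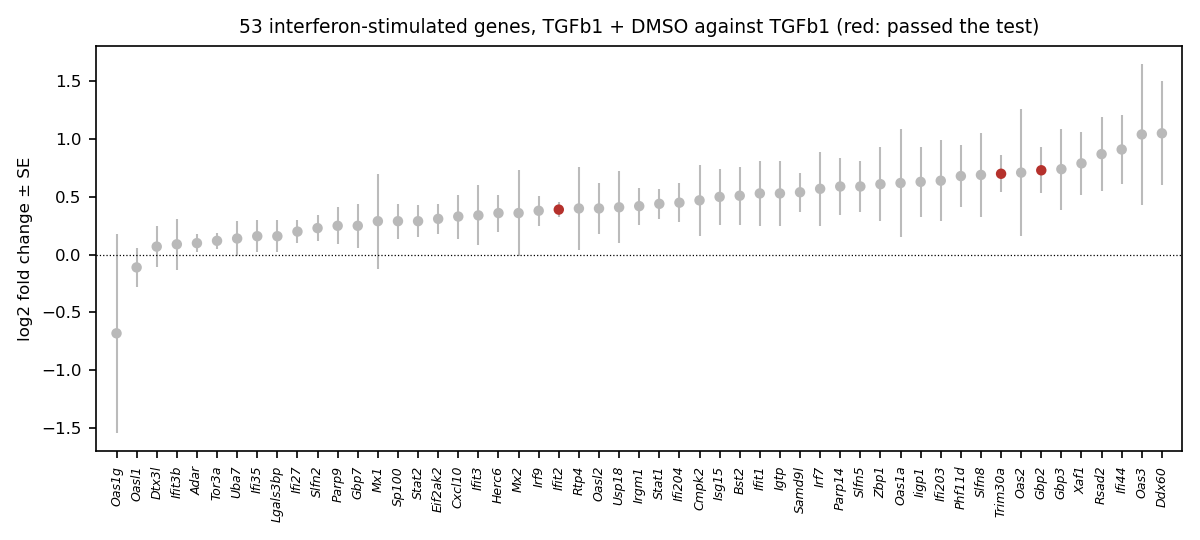
Log2 fold change with its standard error (vertical axis) of TGFb1 + DMSO against TGFb1 for the 53 interferon-stimulated genes tested, in rising order. Points are genes, red where the gene passed the test. Of the 53, 51 lie above 0, and the 3 red points are Ifit2, Trim30a and Gbp2.

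Lists of heat shock, oxidative and chromatin genes held at most 1 call each, near the 6.13% of all genes called. Lists of osmotic (2 of 11 lower, 18.2%), xenobiotic and metal response genes held more. Of 14 cytosolic heat shock genes 1 fell, Cryab, a small chaperone (log2 change -0.42), and the call was lost without library 2 or 3 of TGFb1 + DMSO (adjusted p of 0.0562 and 0.061). It was also lost in the fit of the 6 libraries alone (0.094). Of 15 NRF2 and oxidative response genes 1 rose, Hmox1, which degrades haem (0.16), and it was lost without library 2 or 3 of TGFb1 + DMSO or library 1 of TGFb1 (adjusted p of 0.0895 to 0.181). Hmox1 was also lost with RLE scaling factors (adjusted p = 0.0517) and with DESeq2 (0.0516). Of 11 osmotic stress genes Aqp1, a water channel, fell from 3.78 ± 0.617 to 1.79 ± 0.866 CPM (log2 change -1.08, adjusted p = 0.00345) and Slc6a6, the taurine transporter, had -0.18. The call of Slc6a6 was lost without library 3 of TGFb1 + DMSO (adjusted p = 0.0518), and Nfat5, the osmotic stress regulator, had 0.14 and did not pass.

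Among 13 genes of xenobiotic handling 1 rose and 3 fell (7.69% and 23.1%, against 2.33% and 3.8% of all genes). The 1 that rose was Cyp1b1, a cytochrome, from 337 ± 7.64 to 406 ± 10.9 CPM (log2 change 0.27, adjusted p = 4.88e-05). Abcb1a, a drug efflux pump, held 14.2, 18.6 and 18.4 CPM against 10.5, 10.4 and 11.0 CPM (log2 change -0.68), and it can share reads with its copy Abcb1b. Of 11 genes reducing methionine sulfoxide or handling sulfur, Mat2a had 0.19 and Msrb1 -0.22, and each lost its call without library 1 of TGFb1 or of TGFb1 + DMSO, and Msrb1 also without library 2 of TGFb1 + DMSO. Msrb1 further lost it with library totals alone, no filter, the 6 libraries alone and the GC and length correction (adjusted p of 0.0553 to 0.0671). Of 9 metallothionein and metal response genes 3 rose and 1 fell (33.3% and 11.1%). The metallothioneins Mt1 and Mt2 had 0.26 and 0.42 with overlapping groups and lost their calls without library 2 or 3 of either group. Mt1 also lost its call in the fit of the 6 libraries alone (adjusted p = 0.0756). Of 14 DNA methylation and chromatin enzyme genes 0 were called (1 higher and 2 lower at an unadjusted p under 0.05, 0 with limma voom, 1 lower with DESeq2), and Dnmt1, the maintenance methyltransferase, was 229 ± 6.89 and 229 ± 5.09 CPM.

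Inflammatory lists held scattered calls. Of 14 chemokine genes 2 were lower (14.3%, against 3.8% of all genes): Cx3cl1 fell from 65.2 ± 1.33 to 51.4 ± 3.86 CPM, and Ccl9 had a log2 change of -0.56 whose call was lost without library 2 or 3 of TGFb1 + DMSO or library 1 or 3 of TGFb1 (adjusted p of 0.0718 to 0.221). Ccl9 also lost it with library totals alone (0.0553), with the 6 libraries alone (0.144) and with limma voom (0.135). Tnfaip3, a brake on NF-kB signalling, fell by 0.34 on the log2 scale, among 3 lower and 1 higher of 20 NF-kB genes (15% and 5%, against 3.8% and 2.33% of all genes). In that list 1 was lower without library 2 or 3 of TGFb1 + DMSO or library 1 of TGFb1. Ptgis, prostacyclin synthase, fell by 0.23. Ptgs2, the inducible cyclooxygenase, had -0.37 and lost its call without library 2 or 3 of TGFb1 + DMSO or library 1 of TGFb1 (adjusted p of 0.0741 to 0.105). It also did not pass with limma voom (0.0561). Complement genes split: C3 fell from 97.7 ± 8.79 to 75.6 ± 3.39 CPM, and C4b rose from 23.1 ± 1.33 to 29.3 ± 2.12 CPM, both far under DMSO alone at 3787 ± 249 and 354 ± 10.9 CPM. Fosl1, an AP-1 subunit, held 32.1, 32.4 and 30.4 CPM against 21.1, 19.4 and 24.8 CPM (log2 change -0.54, adjusted p = 4.87e-06).

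Energy and translation genes gave no calls. Over all genes 6.13% were called, so a count of 0 in lists of 10 to 19 genes lies near that share. The 10 mitochondrially encoded genes had a median log2 change of 0.21 with 0 called and 0 at an unadjusted p under 0.05, and 0 with DESeq2 and with limma voom. Their summed level was 3016, 3704 and 3971 CPM with TGFb1 and 4667, 4048 and 3467 CPM with DMSO added, so the groups overlapped. Of 16 nuclear genes of the respiratory chain and 19 genes of cytosolic ribosomal proteins 0 were called (1 lower in each at an unadjusted p under 0.05, 0 with limma voom, and 1 lower and 0 with DESeq2), with medians of -0.03 and -0.06.

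**Figure D5:**
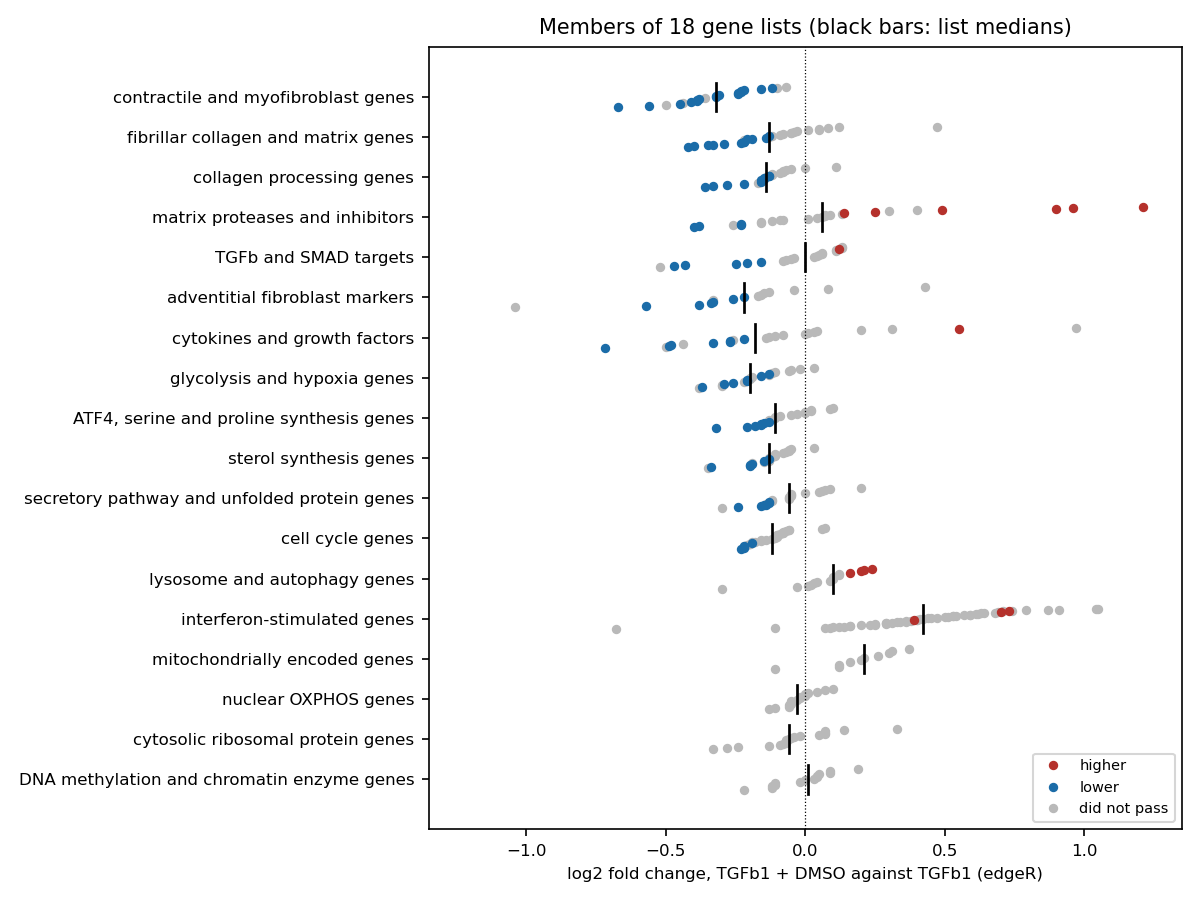
Log2 fold change (horizontal axis) of TGFb1 + DMSO against TGFb1 for the tested members of 18 gene lists. Points are genes, red or blue where higher or lower past the test and grey otherwise, and black bars are list medians. The contractile list has the lowest median (-0.32) and the interferon list the highest (0.42), and 2 members beyond 1.3 in size are not drawn.

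Base composition and length moved with the differences. The median GC content of transcripts was 46.2% for genes called higher, 52.7% for genes called lower and 49.4% for all genes tested. Median lengths were 4577, 3055 and 3033 bases. In the fifth of 2104 genes lowest in GC, 111 were higher and 41 lower, and in the fifth of 2101 genes highest in GC, 33 were higher and 186 lower. With a correction for GC and length, chosen after seeing the data, 340 genes were higher and 724 lower, 819 of them also among the 993. In that fit 18 contractile, 13 matrix and 10 collagen processing genes were lower, and 3 interferon genes were higher. Of 129 named genes that passed, 12 lost their call with the correction, among them Col1a1 (log2 change -0.10, adjusted p = 0.0772), and none changed direction.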

How the data were processed

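Bulk RNA-seq libraries of total RNA (stranded kit, per the labels' protocols) were analysed from the authors' deposited table of raw read counts for 52636 genes in 21 libraries, and the 21 deposited single-library tables held the same counts. The submitters' processing notes name the builds GRCm38 and GRCh38; the aligner, counter and strand setting were not given in the sources used here. Names and coordinates came from GENCODE M21 (52489 IDs matched), and the 147 IDs with no name held 0.00736% of counts.

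Libraries were grouped by the treatment label. All 7 groups were fitted with edgeR 4.0.16 (R 4.3.3; TMM factors, default filter on low counts, robust quasi-likelihood F-test), the contrast was TGFb1 + DMSO minus TGFb1, and p-values were Benjamini-Hochberg adjusted over 16197 genes. The standard error is the log2 fold change divided by the root of F. Alternatives used DESeq2 1.42.0, limma voom 3.58.1, other scaling and filters, the 6 libraries alone, each library left out, and a GC and length correction over 10 GC and 5 length classes. The pipeline was tested on simulated counts.

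Named genes were the 12 per direction with the largest change and the 6 per direction with the largest difference in mean CPM (past the test, no overlap, mean CPM of at least 2 on the log2 scale), up to 4 called members per list, and 7 fixed genes. Other list members named were chosen after their values were seen. A few members of the lists are not reported here. The genes and 42 lists were chosen with earlier results of these data known.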

Additional observations from a re-analysis of the deposited data

How the results depend on the processing

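The counts of called genes depended most on scaling and on single libraries. The 378 genes higher became 668 with library totals alone, and 225 to 337 when each library was left out in turn. The 615 genes lower were 421 to 547 in those fits, and no other setting moved either count by more than 1.5 times. The 6 fits that leave out a library compare 2 libraries with 3. With DESeq2 the counts were 378 higher and 823 lower, and 940 genes were shared with the 993. Of 129 named genes that passed, 69 also passed in every alternative and every fit with a library left out, and no named gene changed direction. No paired analysis was possible because the labels share no replicate numbers and the numbers used here follow the order of the records. With 3 libraries a group, differences under 1.2-fold, 476 of the calls, rest on a small spread, and genes near 1 CPM were measured with few counts.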

Other observations

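The genes in the next sentences were chosen after their values were seen and, but for the keratins, belong to none of the lists. A pair of retinoid genes was lower with the solvent: Aldh1a3, which makes retinoic acid, held 75.4, 66.7 and 64.6 CPM with TGFb1 and 43.8, 41.4 and 39.3 CPM with TGFb1 + DMSO (log2 fold change -0.73, adjusted p = 8.17e-13 by edgeR), and Stra6, which takes up retinol, held 23.9, 27.8 and 27.6 CPM against 16.3, 15.1 and 15.8 CPM (log2 fold change -0.75, adjusted p = 6.21e-07 by edgeR). Also lower were 2 genes from no common list: Pkp2, a desmosomal plakophilin, fell by 0.64 on the log2 scale, and Sprr1a, a cornified envelope protein, by 0.60. Of the listed epithelial markers, the keratin genes Krt8, Krt18 and Krt5 were at 0 in all 6 libraries, while Krt19, a listed mesothelial marker, had a log2 fold change of -1.27 at a low level. With TGFb1 the mesothelial markers summed to 27.9 to 32.3 CPM, and Wt1 averaged 26.7 CPM. The 1 lower call among the 3 mesothelial markers tested was lost without library 1 of TGFb1 + DMSO. Acta1, skeletal actin, held 9.99, 10.8 and 10.6 CPM against 5.7, 7.12 and 7.24 CPM, and Jph2, junctophilin, fell by 0.67 on the log2 scale.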
